A study of Mus musculus with 12 samples.

Results

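Cytosolic ribosomal protein genes were followed across total RNA-seq libraries of mouse striatum. Members were taken by symbol, as Rpl or Rps followed by a number and at most one letter a or x, or Rplp0, Rplp1 and Rplp2, with at least 10 reads in at least 3 of the 12 libraries. The rule found 75 of the 53465 genes in the count table, 46 of the large subunit and 29 of the small subunit. It leaves out, among others, Rpsa, Fau and Rack1, whose symbols have another form, and paralogs such as Rpl22l1.

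All mice were on the C57/BL6 background, per the labels, and each of 4 genotypes had 3 libraries. WT animals were wild-type. Q175HD animals carried the neo-deleted Q175 knock-in, B6J.129S1-Htttm1.1Mfc/190ChdiJ, which places an expanded CAG repeat in the mouse huntingtin gene Htt and serves as a model of Huntington's disease. SUMO-KO animals lacked SUMO-1, a small protein that is attached to other proteins, and Q175HD/SUMO-KO animals combined the knock-in with that loss. Neither age nor sex was given, and the labels do not say that the 3 libraries of a genotype came from separate animals, so the p-values measure the spread between these libraries. The study asks how loss of SUMO-1 changes the transcriptome of the Huntington's disease striatum.

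A ribosome is built from ribosomal RNA and one copy, or a few copies, of each ribosomal protein, and cells keep the mRNAs of these proteins in balance. Most of these mRNAs begin with a run of pyrimidines, the terminal oligopyrimidine tract, through which the mTORC1 kinase pathway and the RNA-binding protein Larp1 control their translation and stability. In neurons these mRNAs are found in dendrites and axons as well as in the cell body. Ribosomal proteins made in excess of the ribosomal RNA are degraded, so mRNA levels are not a measure of the number of ribosomes.

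The start regions of the members are shown because that tract lies at the start of the transcript. RefSeq promoters on GRCm38.p6, from 250 bases before to 50 bases after each start, matched 55 members. The stretches below run from 40 bases before the start to 20 bases after it, 5′ to 3′ on the gene's strand. Capitals mark the longest run of C and T near the annotated start, before or after it, and need not be part of the transcript. The first 5 members were higher in knock-in libraries by the test described below, and the last 3 were among those with the lowest values in it.
Rpl7a: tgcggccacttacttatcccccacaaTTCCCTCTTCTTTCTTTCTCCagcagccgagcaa
Rpl18: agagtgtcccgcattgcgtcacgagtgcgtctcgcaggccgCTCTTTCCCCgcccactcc
Rps9: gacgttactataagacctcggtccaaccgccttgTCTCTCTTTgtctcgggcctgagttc
Rps18: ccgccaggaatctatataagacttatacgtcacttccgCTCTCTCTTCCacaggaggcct
Rps15a: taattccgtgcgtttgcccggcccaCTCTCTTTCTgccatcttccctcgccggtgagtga
Rpl28: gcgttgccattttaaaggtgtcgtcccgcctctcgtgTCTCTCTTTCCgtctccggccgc
Rpl27a: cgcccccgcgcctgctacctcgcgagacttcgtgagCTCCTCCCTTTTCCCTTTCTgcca
Rpl13: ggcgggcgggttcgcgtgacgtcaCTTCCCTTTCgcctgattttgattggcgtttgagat

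These stretches lie at chr2:26910767-26910826 (Rpl7a, plus strand), chr7:45718031-45718090 (Rpl18, plus), chr7:3704001-3704060 (Rps9, plus), chr17:33955646-33955705 (Rps18, minus), chr7:118116128-118116187 (Rps15a, minus), chr7:4792925-4792984 (Rpl28, plus), chr7:109519155-109519214 (Rpl27a, plus) and chr8:123102310-123102369 (Rpl13, plus). The run was 21 bases long in Rpl7a and 20 in Rpl27a. It was 9 to 11 bases long in the other 6. In Rps15a and Rpl13 the run, 10 bases long in each, began 15 and 16 bases before the annotated start. It therefore lay wholly before that start in these members. In stretches read in the same way but not shown, it was at least 7 bases long in Rpl11, where the end of the stretch cut it. It was 9 bases long in Rpl39 and 13 in Rpl31.

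A run of at least 8 pyrimidines on the gene's strand within 25 bases of the start was present in 54.5% of the 55 members and in 22.3% of the 27025 genes with a promoter. The motif CTTCCG, on either strand anywhere in the window, was present in 69.1% of the members and 18.8% of all genes. ATGGCG, searched in the same way, was present in 29.1% of the members and 10.2% of all genes, and TATAAA in 10.9% and 15.7%. The pyrimidine run was present in 11 of the 20 members with a promoter that were higher in knock-in libraries by the test below and in 19 of the 35 that were not called. The run therefore occurred at about the same share whether or not a member was called, and a match describes letters only.

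The libraries held 9379594 to 17226419 reads assigned to genes. They were uneven in marker content. Summed CPM (reads per megaread of the library, scaled by TMM normalisation here and below) of 26 striatal projection neuron markers was 14820 to 18060 in WT and 15520 to 18130 in SUMO-KO, against 9216 to 9937 in Q175HD and 6277 to 9299 in Q175HD/SUMO-KO. Summed CPM of 15 cortical excitatory neuron markers was 429 to 1095 in WT, highest in WT 1 and WT 2, and 207 to 370 in all other libraries. The X-inactivation transcript Xist stood at 1516 to 1980 CPM in WT 2, SUMO-KO 2 and Q175HD/SUMO-KO 2 and was below 10 CPM elsewhere. The Y-linked Ddx3y stood at 0.168, 0 and 0 CPM in those libraries and at 69.2 to 111 CPM elsewhere. By these genes those libraries read as female and all others as male, though the labels give no sex. No Q175HD library read as female, so sex was not balanced between Q175HD and the other genotypes. Summed CPM of 12 astrocyte markers was 5341 to 5806 in WT and 3830 to 4340 in Q175HD/SUMO-KO, and of 12 markers of myelinating oligodendrocytes 8434 to 8983 and 4649 to 7632. Choroid plexus markers, 10 in all, ranged from 330 to 7101 CPM and varied within every genotype, and microglial markers overlapped between genotypes, at 390 to 523 CPM. None of the projection neuron or cortical markers was at 0 in any group. The part of these differences in the results below was not tested beyond fits without WT 1 and WT 2, without the libraries with abundant Xist, and with a term for the latter.

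Ribosomal protein mRNAs were abundant and unequal. In the authors' deposited TPM, which are per transcript length, the median member stood at 191 TPM and 56 of the 75 members reached 100 TPM. Rplp1, one of the acidic proteins of the stalk that recruits elongation factors, had the highest level, 1894 ± 182 TPM (SD, n = 12). It was followed by Rps15, needed for export of the small subunit precursor, at 931 ± 152 TPM, and by Rpl8, near the peptidyl transferase centre, at 634 ± 68.6 TPM. Rps29 at 598 ± 60.1 TPM and Rpl17 at 593 ± 74.5 TPM, the next in order, differed from each other by less than their spread over libraries, as did Rpl8 from both.

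At the low end, Rpl36a stood at 56.2 ± 5.72 TPM, Rps15a at 46.0 ± 5.98 TPM and Rpl18 at 45.9 ± 6.99 TPM. Rpl13a, also known outside the ribosome for silencing inflammatory transcripts in human cells, stood at 14.4 ± 3.05 TPM. Rpl24, which forms a bridge to the small subunit, was listed at 2.04 ± 0.605 TPM from 4 to 14 reads per library and passed the read minimum in 3 libraries. The other 74 members had at least 10 reads in every library. The levels listed for Rpl24 and Rpl13a lay below those of all other members.

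Multigene origin limits single levels. By comparison of coding sequences, 71 members had at least 1 annotated pseudogene with at least 95% identity over at least 80% of the coding length, 544 pseudogenes in all, with a median of 5 and a maximum of 56 for Rpl21. How reads that match both were assigned is not given in the sources used here, so every member's level is uncertain to that extent. The 288 genes named as ribosomal protein pseudogenes together held 25.9 to 40.01 CPM per library. Another gene on the same strand overlapped 5 members. The partners of Rpl13, Rpl13a and Rpl24 (Gm20388, Gm45713 and Gm28037) were listed at 0 reads in all libraries, Gm11629 beside Rpl19 held 0.0716 to 0.399 CPM, and RPS10-NUDT3 beside Rps10 had no entry in the table analysed. A further gene on the opposite strand overlapped 21 members, and the strand used in counting was not stated.

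**Figure D1:**
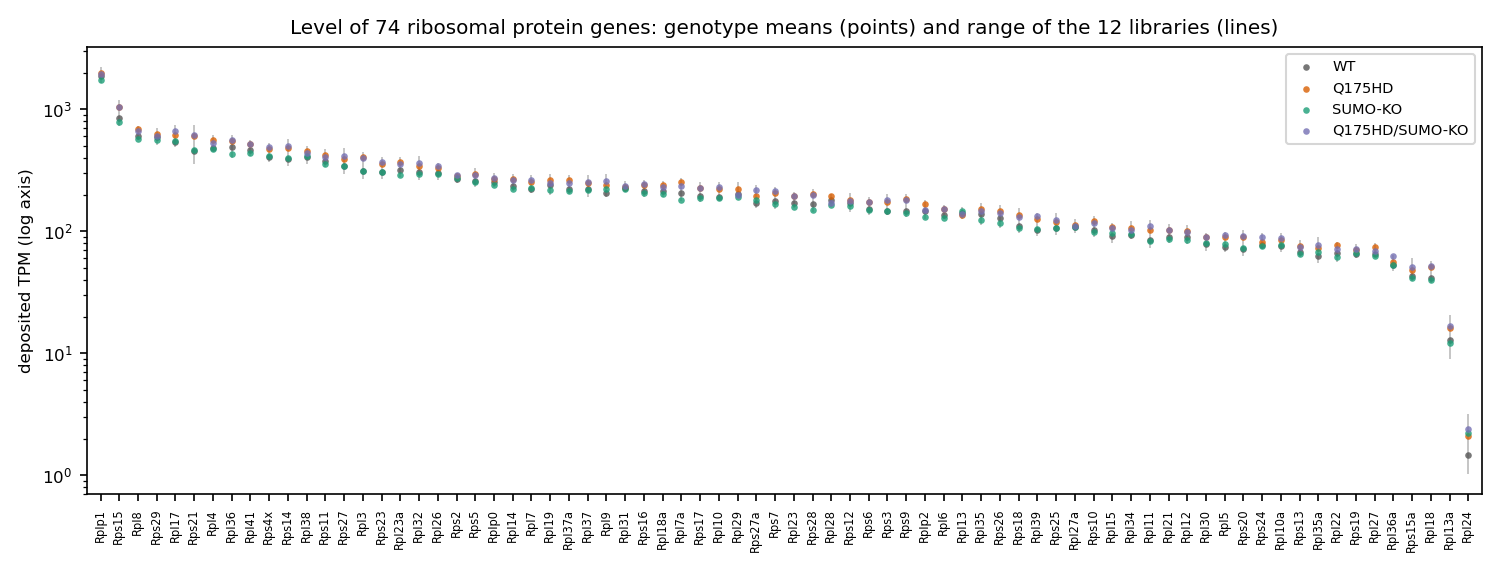
Deposited TPM (log axis) of 74 of the 75 members, ordered by mean level; points are the 4 genotype means of 3 libraries and grey lines span the 12 libraries. The members fall from Rplp1 at 1894 TPM to Rpl13a at 14.4 and Rpl24 at 2.04 TPM, and the genotype means of a member lie close together beside the differences between members.

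Across single libraries the members moved as a block. For each gene the log2 CPM was set against its WT mean, and the mean of these deviations over the 75 members was taken for each library. It was -0.09, 0.002 and 0.088 in the 3 WT libraries and -0.062, 0.079 and 0.004 in the 3 SUMO-KO libraries. In Q175HD it was 0.009, 0.072 and 0.339, so only the third library stood outside the range of WT and SUMO-KO. In Q175HD/SUMO-KO it was 0.229, 0.294 and 0.349, and all 3 libraries lay above every WT and SUMO-KO library. The number of members above their WT mean was 38, 57 and 74 in Q175HD and 73, 72 and 75 in Q175HD/SUMO-KO.

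The share of all assigned reads followed the same order of genotypes. Members took 0.811% ± 0.0444 of reads in WT (SD, n = 3), 0.819% ± 0.0419 in SUMO-KO, 0.933% ± 0.116 in Q175HD and 1.03% ± 0.0406 in Q175HD/SUMO-KO. Single Q175HD libraries stood at 0.843%, 0.891% and 1.06%. Exact (Clopper-Pearson) 95% counting intervals around each library's share were narrow, for example 1.059% to 1.069% for Q175HD 3, so counting error did not separate the libraries of that genotype. In bulk tissue, a change in the mix of cells and a change in the RNA per cell cannot be told apart, and this holds for each result below.

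**Figure D2:**
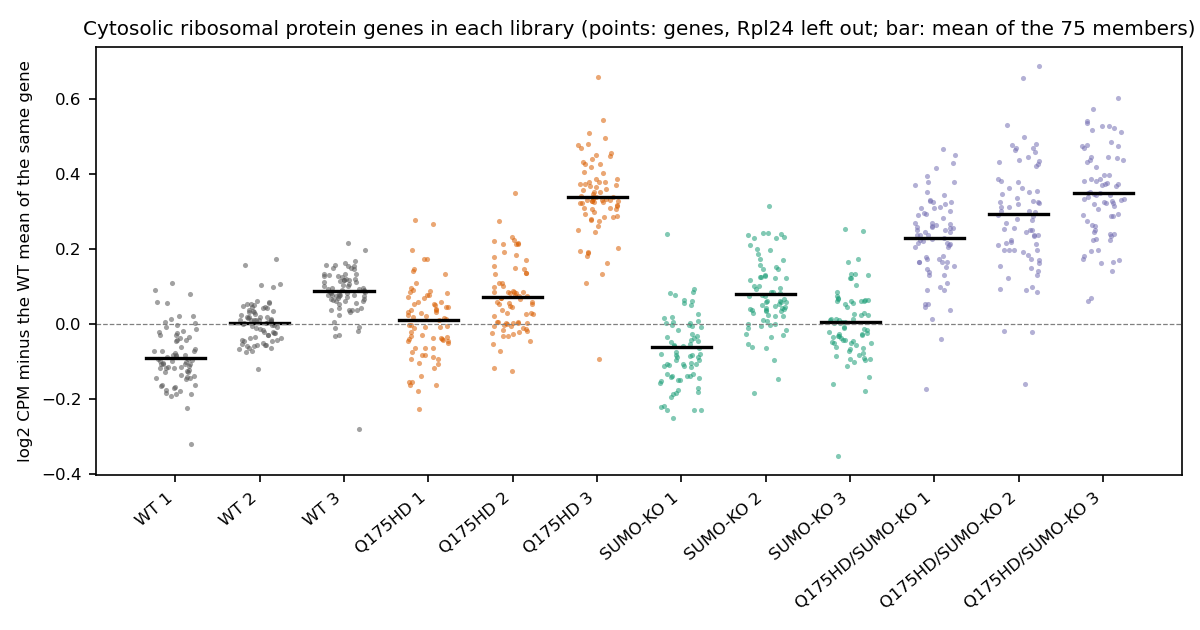
Deviation of each member's log2 CPM from its own WT mean in the 12 libraries (points, Rpl24 left out) and the mean over the 75 members (bars). The bars of the 3 Q175HD/SUMO-KO libraries (0.229 to 0.349) and of Q175HD 3 (0.339) lie above all other libraries, the highest of which is WT 3 at 0.088.

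The members also followed each other closely. Over the 12 libraries, which share their normalisation, the median Pearson r of a member with the mean of the others was 0.922, and 63 of the 75 exceeded 0.8, as a description with no test. Such an r was not computed for other gene lists, so this closeness is not shown to be particular to the members. Rpl21 and Rps7 were among those that went most closely with the rest, with r of 0.99 and 0.983. Rpl13 went least with them (r = 0.175), followed by Rpl24 (0.526) and Rpl28 (0.542). Rpl27a, Rplp0 and Rpl28 varied least over the libraries, with an SD of 0.095, 0.111 and 0.123 on the log2 scale. Rpl24, Rps21 and Rpl13a varied most, with an SD of 0.354, 0.296 and 0.279.

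The effect of the knock-in was tested first over both SUMO-1 backgrounds. Averaged over SUMO-1 status, 30 of the 75 members were higher in knock-in libraries and none was lower, by edgeR's quasi-likelihood test over 17796 genes at a Benjamini-Hochberg adjusted p below 0.05. Over all genes tested, 8.04% were called higher and 8.83% lower in this comparison. At an unadjusted p below 0.05, 61 members and 31.9% of all genes passed. Of the members, 74 had a positive log2 fold change, and their median was 0.21 beside -0.0004 over all genes. The change of a single member was small, and the highest, Rps21, had a log2 fold change of 0.42 ± 0.11 (SE).

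Among the large subunit proteins, Rpl7a had the smallest adjusted p. Rpl7a (ENSMUSG00000062647, chromosome 2, 26910764 to 26913318 on GRCm38), a protein that joins early large subunit precursors, stood at 121, 112 and 117 CPM in WT and at 128, 131 and 156 CPM in Q175HD. It stood at 99.9, 103 and 109 CPM in SUMO-KO and at 134, 137 and 154 CPM in Q175HD/SUMO-KO. All 6 knock-in libraries were above all 6 libraries without the knock-in. The averaged log2 fold change was 0.35 ± 0.07 (SE), with an edgeR adjusted p of 0.00299.

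Rpl18 (ENSMUSG00000059070, chromosome 7, 45715457 to 45720836) stood at 55.9, 50.4 and 51.4 CPM in WT and 55.8, 59.7 and 72.1 CPM in Q175HD. In SUMO-KO it stood at 49.6, 53.9 and 52.9 CPM and in Q175HD/SUMO-KO at 70.1, 71.1 and 68.8 CPM. The Q175HD libraries overlapped WT, and the Q175HD/SUMO-KO libraries lay clear of both groups without the knock-in. Its averaged log2 fold change was 0.34 ± 0.07 (edgeR adjusted p = 0.00469).

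Rpl3 (ENSMUSG00000060036, chromosome 15, 80077791 to 80091868), which reaches toward the peptidyl transferase centre, stood at 267, 301 and 348 CPM in WT, 365, 352 and 442 CPM in Q175HD, 304, 316 and 332 CPM in SUMO-KO and 409, 419 and 432 CPM in Q175HD/SUMO-KO. The knock-in libraries were all above the others, with Q175HD 2 only just above WT 3. Its averaged log2 fold change was 0.37 ± 0.08 (edgeR adjusted p = 0.00667).

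Rpl5 and Rpl11 join the 5S ribosomal RNA in a particle that, when free, can bind the p53 regulator Mdm2. Rpl11 (chromosome 4, 136028265 to 136053428) stood at 66.9, 74.8 and 76.5 CPM in WT, 73.6, 82.2 and 97.6 CPM in Q175HD, 71.8, 79.4 and 68.1 CPM in SUMO-KO and 94.4, 103 and 105 CPM in Q175HD/SUMO-KO. Only Q175HD/SUMO-KO was clear of both groups without the knock-in. Its averaged log2 fold change was 0.34 ± 0.08 (edgeR adjusted p = 0.00832). Rpl5 rose by 0.25 ± 0.07 (edgeR adjusted p = 0.0246), and Rpl23, another protein reported to bind Mdm2, also by 0.25 ± 0.07 (0.0275). The call of Rpl5 was lost in 6 of the 12 fits that each left out 1 library, and that of Rpl23 in 4.

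Rpl39, a short protein at the wall of the exit tunnel, stood at 41.7, 47.8 and 49.0 CPM in WT, 51.9, 50.5 and 64.2 CPM in Q175HD, 46.5, 54.0 and 46.4 CPM in SUMO-KO and 63.0, 62.2 and 70.0 CPM in Q175HD/SUMO-KO. It rose by 0.34 ± 0.08 on the log2 scale (edgeR adjusted p = 0.0102). Rpl41, the shortest protein of the set with a coding length of 75 bases, rose by 0.21 ± 0.07 (0.0409), and Rpl10, needed for the last steps of large subunit maturation, by 0.24 ± 0.07 (0.0344). Rpl13a rose by 0.39 ± 0.12 (0.0478), from 6.59 to 9.55 CPM in the libraries without the knock-in and 9.34 to 13.4 CPM with it, ranges that overlap. When each library was left out in turn, the call of Rpl13a was lost in 11 of 12 fits, that of Rpl41 in 8 and that of Rpl10 in 7, while that of Rpl39 was lost in none.

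Of the small subunit, Rps9 (ENSMUSG00000006333, chromosome 7, 3703993 to 3706897) stood at 109, 117 and 125 CPM in WT, 123, 135 and 162 CPM in Q175HD, 108, 127 and 114 CPM in SUMO-KO and 145, 152 and 158 CPM in Q175HD/SUMO-KO. It rose by 0.32 ± 0.07 on the log2 scale (edgeR adjusted p = 0.0101). Rps20 stood at 81.3 to 102 CPM in WT, 106 to 126 CPM in Q175HD, 87.5 to 109 CPM in SUMO-KO and 116 to 133 CPM in Q175HD/SUMO-KO, and rose by 0.33 ± 0.08 (0.0123). Rps21 stood at 91.3, 123 and 132 CPM in WT, 129, 138 and 180 CPM in Q175HD, 135, 124 and 107 CPM in SUMO-KO and 158, 184 and 163 CPM in Q175HD/SUMO-KO, and its adjusted p was 0.0185. The Q175HD libraries of Rps9 and Rps21 overlapped WT, and those of Rps20 did not.

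The other small subunit members called in the averaged comparison included Rps28 (0.34 ± 0.08), Rps15 (0.36 ± 0.09), Rps18 (0.31 ± 0.08) and Rps14 (0.32 ± 0.08), with edgeR adjusted p of 0.0124, 0.0136, 0.0153 and 0.017. Loss of one copy of RPS14 contributes to the anaemia of a human myelodysplastic syndrome. Rps27a, made as a fusion with ubiquitin, had 0.23 ± 0.08 and was not called (0.0755). Neither was Rps6, the substrate of S6 kinase downstream of mTORC1, at 0.20 ± 0.07 (0.0665), nor the X-linked Rps4x at 0.22 ± 0.07 (0.0564). Rps19, the gene most often mutated in human Diamond-Blackfan anaemia, had 0.12 ± 0.07 (0.255), and Rps25, needed by some viral internal ribosome entry sites, 0.18 ± 0.08 (0.138).

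The stalk proteins Rplp0, Rplp1 and Rplp2 were not called, with averaged log2 fold changes of 0.13 ± 0.06, 0.11 ± 0.08 and 0.20 ± 0.07 and edgeR adjusted p of 0.125, 0.327 and 0.0602. Rpl22, which has the paralog Rpl22l1, had 0.22 ± 0.08 (0.0632), and the paralog, which is no member, rose by 0.35 ± 0.11 (0.0379). Rpl38, reported to affect translation of Hox mRNAs in mouse embryos, had 0.12 ± 0.08 (0.32), Rpl17 0.23 ± 0.08 (0.0649) and the X-linked Rpl36a 0.17 ± 0.09 (0.218).

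The lowest values belonged to Rpl13, Rpl27a and Rpl31, with log2 fold changes of -0.07 ± 0.09, 0.03 ± 0.06 and 0.06 ± 0.07 and edgeR adjusted p of 0.654, 0.74 and 0.626. Rpl13 stood at 120, 114 and 113 CPM in WT, 98.9, 113 and 109 CPM in Q175HD, 108, 134 and 131 CPM in SUMO-KO and 103, 114 and 151 CPM in Q175HD/SUMO-KO. It was the one member with a negative averaged value, and the 3 Q175HD libraries lay just below the 3 WT libraries, while the other groups overlapped. The averaged value differed from 0 by less than its standard error.

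**Figure D3:**
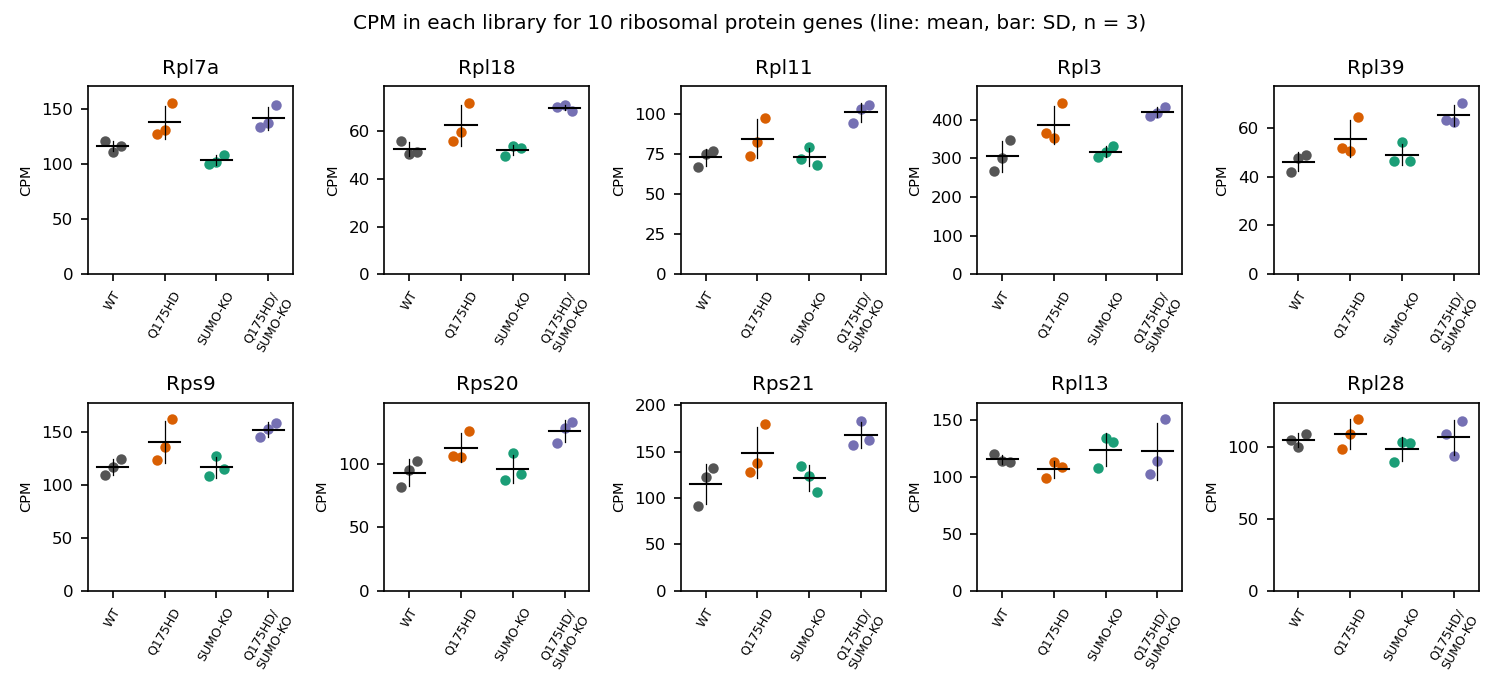
CPM in each library for 8 members called in the averaged knock-in comparison and for Rpl13 and Rpl28, which were not called; points are libraries, lines the mean and bars the SD of 3 libraries, and each axis starts at 0. In the Q175HD group the third library is the highest for all panels but Rpl13, while the 3 Q175HD/SUMO-KO points of Rpl18 lie between 68.8 and 71.1 CPM.

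The averaged comparison depended on single libraries in its count but not in its direction. For fits with libraries left out and other alternative fits, here and below, the share of all genes called was not tallied. Whether their counts changed more for the members than for other genes was therefore not tested. Leaving out each library in turn gave 13 to 35 called members, with 13 without WT 1 or without Q175HD 3, 14 without SUMO-KO 1 or without Q175HD/SUMO-KO 3, 15 without WT 2 and 19 without Q175HD/SUMO-KO 1. The median log2 fold change of the members stayed between 0.155 and 0.245. Rpl7a, Rpl18, Rpl3, Rpl11, Rps9, Rpl39, Rps20, Rps28, Rps15, Rps18, Rps14, Rps7 and Rps21 were called in all 12 of these fits. Without WT 1 and WT 2, the libraries with most cortical marker RNA, 2 members were called and the median was 0.167. Without the 3 libraries with abundant Xist 9 were called and the median was 0.227, both fits having fewer libraries.

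With SUMO-1 present, the knock-in was compared as Q175HD against WT. No member was called by edgeR in either direction, where 1.11% of all genes tested were called higher and 2.82% lower. At an unadjusted p below 0.05, 9 members and 17.8% of all genes passed, and DESeq2 called 1 member. The median log2 fold change of the members was 0.14 beside 0.003 over all genes, and 72 of 75 values were positive. The highest were Rpl24 at 0.44 ± 0.42, Rps21 at 0.37 ± 0.15 and Rpl3 at 0.34 ± 0.11, with edgeR adjusted p of 0.656, 0.22 and 0.12. The lowest were Rpl13 at -0.12 ± 0.13, Rpl27a at -0.02 ± 0.09 and Rpl31 at -0.02 ± 0.10.

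That median rested on one library. Without Q175HD 3 it was 0.035, and without Q175HD 1 it was 0.206. Without WT 1 and WT 2 it was 0.048. No overlap between the 3 Q175HD and 3 WT libraries, in the higher direction, was seen for 5 members, beside 13.6% of all genes. In the authors' deposited table for this comparison Rpl3 was the one member below an adjusted p of 0.05, with a log2 fold change of 0.344 and an adjusted p of 0.049.

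Without SUMO-1, the knock-in was compared as Q175HD/SUMO-KO against SUMO-KO. By edgeR 13 members were called higher and none lower, beside 3.19% of all genes called higher and 4.61% lower, and 57 members and 24.4% of all genes passed an unadjusted p of 0.05. The median log2 fold change was 0.28, a 1.22-fold difference, beside 0.005 over all genes, and 74 of 75 values were positive. The large and small subunit members had medians of 0.26 and 0.31, with 7 and 6 called. For 65 members all 3 Q175HD/SUMO-KO libraries were above all 3 SUMO-KO libraries, where 13.8% of all genes were.

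The called members were Rpl7a, Rpl18, Rpl11, Rpl36, Rps28, Rps7, Rps15, Rps15a, Rpl39, Rps9, Rpl3, Rpl23 and Rps20. Their edgeR adjusted p ran from 0.00995 for Rpl7a (0.45 ± 0.09) to 0.0491 for Rps20 (0.39 ± 0.11). Rpl36 stood at 57.2, 57.0 and 55.6 CPM in SUMO-KO and 74.3, 75.2 and 79.0 CPM in Q175HD/SUMO-KO, with WT at 58.4, 62.0 and 69.1 CPM and Q175HD at 60.3, 64.3 and 79.3 CPM. Its log2 fold change was 0.43 ± 0.10 without SUMO-1 (edgeR adjusted p = 0.0215) and 0.10 ± 0.10 with SUMO-1 (0.673). The highest values in this comparison were Rpl13a at 0.50 ± 0.18, not called, then Rps15 at 0.47 ± 0.12 and Rps21 at 0.47 ± 0.15, of which only Rps15 was called. The lowest were Rpl13 at -0.02 ± 0.13, Rpl27a at 0.09 ± 0.09 and Rpl29 at 0.10 ± 0.12.

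The count fell to 1 without SUMO-KO 1 or without Q175HD/SUMO-KO 3 and rose to 23 without Q175HD 3. It was 4 to 7 without either other Q175HD/SUMO-KO library, WT 2, Q175HD 2 or SUMO-KO 2, and the median stayed between 0.241 and 0.329. A fit of only these 6 libraries called 1 member. By the authors' deposited table, all of 22 members below an adjusted p of 0.05 were higher, beside 9.5% of the genes with an adjusted p called there in either direction.

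**Figure D4:**
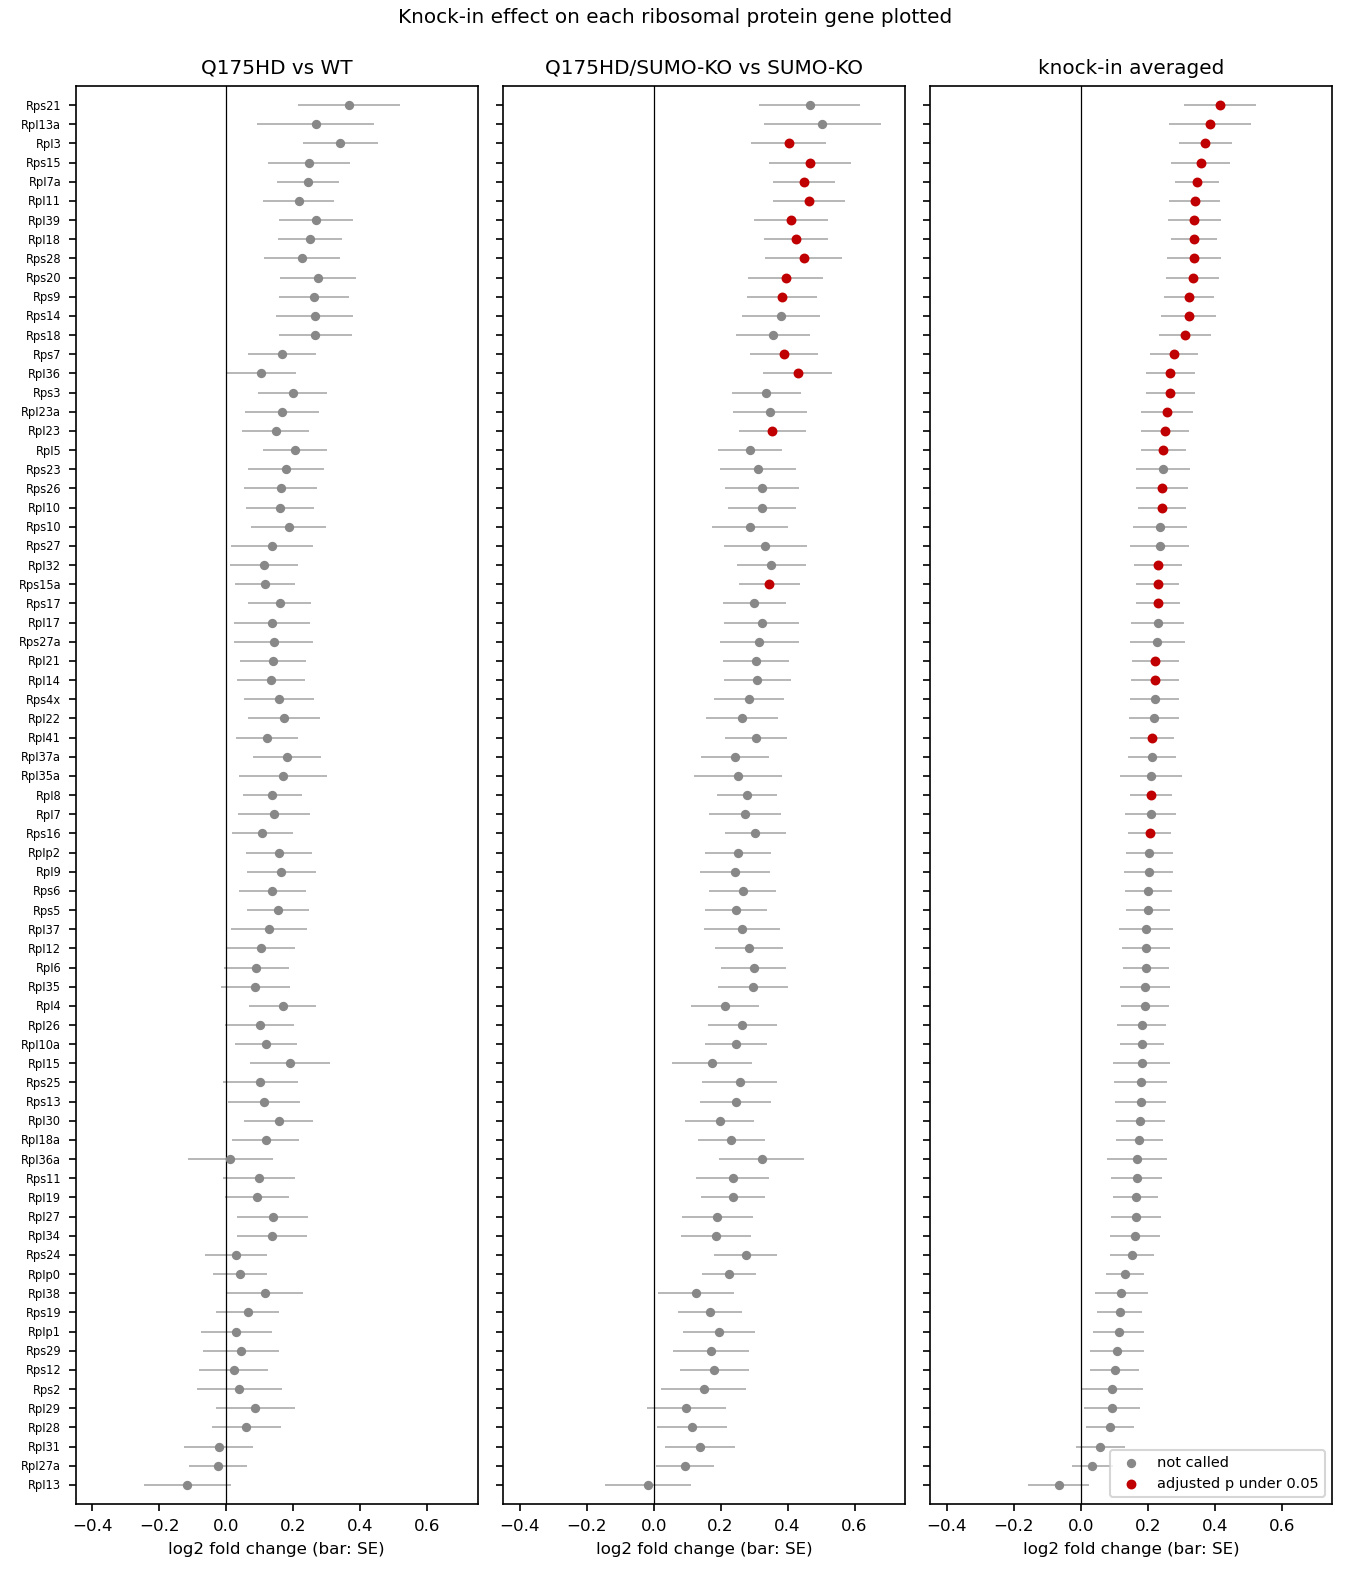
Log2 fold change of each member (points, bars are the SE; Rpl24 and 1 other member left out) for the knock-in with SUMO-1, without SUMO-1 and averaged; red marks an edgeR adjusted p under 0.05. No point is red in the first panel, 13 are in the second and 29 in the third, and nearly all points lie right of 0 in every panel.

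A test of whether the knock-in effect differed with SUMO-1 status, the interaction term, called no member and no other gene by edgeR. At an unadjusted p below 0.05, 1 member passed, beside 4.33% of all genes, and DESeq2 called no member. That member was Rpl36, with a difference of 0.33 ± 0.14 on the log2 scale (edgeR adjusted p = 0.997). The interaction was positive for 73 members, with a median of 0.14 beside -0.006 over all genes. The median was 0.26 without Q175HD 3 and 0.083 without Q175HD 1. The members called only without SUMO-1 are therefore not shown to respond differently there.

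Loss of SUMO-1 alone left the set near its WT level. No member was called by edgeR in SUMO-KO against WT and none passed an unadjusted p of 0.05, while DESeq2 called none either. Over all genes 0.0112% were called higher and 0.0337% lower, and 13.5% passed the unadjusted threshold. The median of the members was 0.003 beside 0.025 over all genes, with 38 positive and 37 negative values. The sign of that median changed with scaling and left-out libraries, from -0.076 without WT 1 and WT 2 to 0.044 without WT 3. The lowest values were Rpl7a at -0.17 ± 0.09, Rpl36 at -0.16 ± 0.10 and Rpl35 at -0.12 ± 0.10, and the highest Rpl24 at 0.58 ± 0.42, Rpl9 at 0.16 ± 0.10 and Rpl35a at 0.15 ± 0.13.

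Loss of SUMO-1 in the knock-in, Q175HD/SUMO-KO against Q175HD, called no member by edgeR or by DESeq2, beside 0.0225% of all genes called higher and 0.0112% lower by edgeR. At an unadjusted p below 0.05, 6 members and 5.28% of all genes passed. The median was 0.15 beside 0.036 over all genes, and 72 values were positive. It was 0.239 without Q175HD 3 and 0.08 without Q175HD/SUMO-KO 3. Rpl24, Rpl36a and Rps27a had the highest values, 0.34 ± 0.38, 0.33 ± 0.13 and 0.28 ± 0.12, and Rpl28, Rpl29 and Rplp2 the lowest, -0.03 ± 0.10, -0.02 ± 0.12 and -0.02 ± 0.10. Averaged over Htt status, loss of SUMO-1 called no member by edgeR or DESeq2 (by edgeR 0.0562% of all genes were called higher and 0.0225% lower), 3 passed an unadjusted p of 0.05 beside 15.7% of all genes, and the median was 0.07.

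The knock-in together with loss of SUMO-1, Q175HD/SUMO-KO against WT, had 15 members called higher and none lower by edgeR, beside 3.37% of all genes called higher and 5.07% lower, and 55 members and 24.4% of all genes passed an unadjusted p of 0.05. All 75 values were positive, with a median of 0.28 beside 0.046 over all genes. Rps27a was called here with a log2 fold change of 0.42 ± 0.12 (adjusted p = 0.0419), from 98.0, 107 and 116 CPM in WT to 132, 145 and 154 CPM. Rpl5 had 0.41 ± 0.10 (0.0211), from 83.6, 93.6 and 101 CPM in WT to 122, 118 and 129 CPM, and Rpl9 0.40 ± 0.10 (0.0304). Rpl39 (0.50 ± 0.11, 0.0157) and Rps21 (0.54 ± 0.15, 0.0441) had the highest values among those called, and Rpl24 was higher at 0.78 ± 0.41 without a call. Rpl28, Rpl29 and Rpl13 were lowest, at 0.03 ± 0.10, 0.06 ± 0.12 and 0.08 ± 0.13.

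For 60 members the 3 Q175HD/SUMO-KO libraries were all above the 3 WT libraries, beside 16.3% of all genes. The count of called members was 0 without Q175HD/SUMO-KO 3, 1 without WT 1, 2 without WT 2, 3 without Q175HD/SUMO-KO 1, 5 without Q175HD/SUMO-KO 2, 9 without Q175HD 2 and 27 without Q175HD 3. The median stayed between 0.21 and 0.329. Q175HD against SUMO-KO called 1 member, Rpl7a, at 0.41 ± 0.09 (edgeR adjusted p = 0.0168), beside 3.51% of all genes called higher and 5.45% lower, and 11 members and 28.3% of all genes passed an unadjusted p of 0.05. The call was lost without Q175HD 3, SUMO-KO 1 or SUMO-KO 2, and 2 members were called without Q175HD/SUMO-KO 3. Rps28 (0.34 ± 0.11) and Rpl13a (0.31 ± 0.18) were next, and Rpl13 (-0.22 ± 0.13), Rpl24 (-0.14 ± 0.40) and Rpl27a (-0.04 ± 0.09) lowest. These comparisons share libraries, so their counts are not independent of each other.

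Features of the members that did not enter the rule were set beside the averaged knock-in value. Small nucleolar RNAs, which guide modification of ribosomal RNA, were annotated inside 28 members, 53 of them in all. Of these hosts 14 were called higher, and of the 47 others 16 were, with median log2 fold changes of 0.21 in both. Across the 75 genes, which are not independent, Spearman's rho of the averaged log2 fold change was 0.066 with coding length, 0.02 with mean TPM and -0.178 with the number of near-identical pseudogenes. Members lie on 19 chromosomes, 14 of them on chromosome 7 and 4 on the X, and none within 10 Mb of Htt.

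Other lists of ribosome production and translation were read against the 8.04% of all genes tested that were called higher in the averaged comparison. In that comparison 12 of 76 ribosome biogenesis genes rose and none fell, with a median log2 fold change of 0.12. They included Ddx21, a helicase of ribosomal RNA transcription and processing (0.39 ± 0.06, edgeR adjusted p = 0.000595), Polr1c, a subunit shared by RNA polymerases I and III (0.40 ± 0.07, 0.00253), and Nop16 (0.43 ± 0.10, 0.00953). Of 39 initiation factor genes 8 rose and none fell, with a median of 0.13, among them Eif6, which keeps subunits apart (0.32 ± 0.06, 0.00467). Of 10 elongation factor genes 2 rose, Eef1a1 and Eef1b2, with a median of 0.09.

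A list of 22 other genes whose mRNAs carry the same pyrimidine tract, Rack1 among them, had 9 that rose and none that fell, with a median of 0.18. The elongation factor Eef1a1 belongs to that list too (0.29 ± 0.07, edgeR adjusted p = 0.018), and Btf3, which attends the emerging peptide, had 0.37 ± 0.07 (0.00336). Of 11 tested ribosomal protein genes and paralogs outside the symbol rule 3 rose, Rpl22l1, Rpl7l1 and again Rack1, with a median of 0.25.

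Mitochondrial ribosomal protein genes rose in 8 of 77 cases and fell in 1, Mrps35, with a median of 0.10, a share close to that over all genes. Nuclear-encoded oxidative phosphorylation genes rose in 12 of 77 cases and fell in none, with a median of 0.14. Whether the cytosolic members moved more than these lists was not tested. By library, the oxidative phosphorylation list stood at 0.202 in Q175HD 3, -0.206 in SUMO-KO 1 and 0.135, 0.003 and 0.266 in Q175HD/SUMO-KO, so Q175HD 3 was the highest Q175HD library for it as well. Striatal projection neuron markers fell in 24 of 26 cases, with a median of -0.82, beside 8.83% of all genes called lower. Cortical markers fell in 5 of 15, and astrocyte and myelinating oligodendrocyte markers in 2 of 12 each. In Q175HD/SUMO-KO against SUMO-KO, cortical markers fell in 1 of 15, with a median of 0.46.

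**Figure D5:**
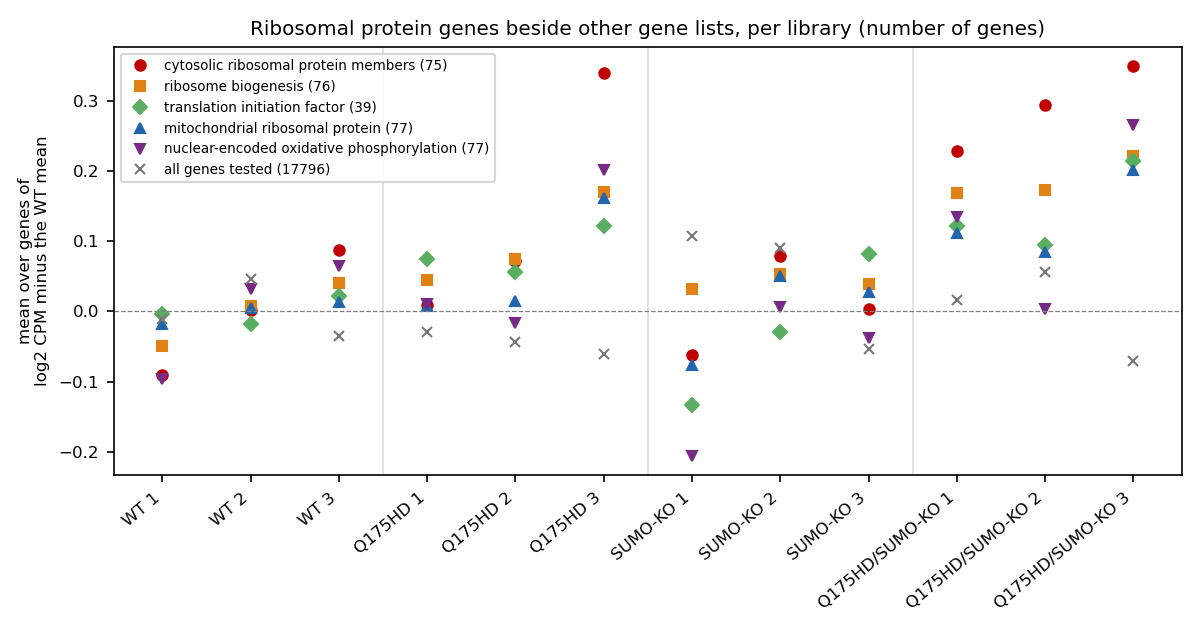
Mean deviation of log2 CPM from the WT mean in each library for the 75 members, 4 other gene lists and all 17796 genes tested. Q175HD 3 and the 3 Q175HD/SUMO-KO libraries are the highest for the cytosolic members (0.229 to 0.349). They are also the highest for ribosome biogenesis, initiation factors and mitochondrial ribosomal proteins. For oxidative phosphorylation, Q175HD/SUMO-KO 2 (0.003) lies below WT 3 (0.064). The mean of all genes in these 4 libraries lies between -0.071 and 0.056.

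In the deposited TPM the members' mean deviation moved in 3 libraries. On the log2(TPM + 1) scale it was 0.026 in Q175HD/SUMO-KO 3 against 0.349 in log2 CPM, -0.125 in SUMO-KO 3 against 0.004, and 0.184 in Q175HD 2 against 0.072. In Q175HD/SUMO-KO 3 the gene Gm23935 was listed at 137672 TPM, in SUMO-KO 3 at 116091 TPM, in WT 1 at 66043 TPM and in SUMO-KO 2 at 35223 TPM, and at 1156 to 10412 TPM in the others. TPM sum to a fixed total in each library, so a gene at that level leaves less for the rest. Whether this accounts for the 3 shifts was not tested. In Q175HD 2, which moved upward, Gm23935 was listed at 2855 TPM. Summed member TPM was 22224 in Q175HD 3, 20508 and 22103 in the first and second Q175HD/SUMO-KO libraries, 17847 in the third, and 16584 to 18695 in WT.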

How the data were processed

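Striatal total RNA of 12 libraries was analysed, 3 for each of 4 genotypes. Per the labels' protocols, miRNeasy columns gave the RNA, ribosomal RNA was depleted and a directional NEBNext Ultra II kit was used. Among the programs in the submitters' processing notes are STAR 2.5.2a, Bowtie 1.1.2, cutadapt 2.10 and DESeq2, with mm10 (GRCm38) as build. Neither the counting tool nor its strand setting is stated. The authors deposited raw read counts per gene, TPM per gene, and tables of their own DESeq2 comparisons with log2 fold changes and adjusted p-values. A sheet of normalised counts was not used, and 0 columns belonged to other series.

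Counts were fitted with edgeR 4.0.16 (R 4.3.3): genes kept by filterByExpr (minimum count 10), TMM factors, 4 genotype means over all 12 libraries, robust quasi-likelihood test, Benjamini-Hochberg adjustment over 17796 genes. The common biological coefficient of variation was 0.171. Deviations used log2 CPM with a prior count of 2. DESeq2 1.42.0, other scalings and left-out libraries were alternatives. Intervals of read shares are 95% binomial (Clopper-Pearson) and cover counting error only. Pseudogenes were matched with BLAST 2.17.0. The procedure was tested on simulated counts with fold changes larger than those of the members, so that test does not bear on changes of their size. Depth ran from 9379594 to 17226419 reads per library.

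Named were a fixed set of members with well-known roles, members called in a comparison (up to 10 per direction), the 3 highest and 3 lowest per pair of genotypes, the 5 highest and lowest in TPM, and the most and least variable or coherent ones. Of other lists, called genes were named. Some results are not reported here. The members and all gene lists were chosen with earlier results of these data known.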

Additional observations from a re-analysis of the deposited data

How the results depend on the processing

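No direction reversed among the counts of called members, the medians and the single-gene calls tried under any setting, except that the near-zero SUMO-KO against WT median took either sign. The share of all genes called was not tallied under these settings, so the counts of members below stand without that background. With median-ratio size factors 8 members were called in Q175HD/SUMO-KO against WT, and with no filter on low counts 8, with 2 in Q175HD against SUMO-KO. With library totals and no TMM, 1 was called in Q175HD against WT, 32 in Q175HD/SUMO-KO against SUMO-KO, 39 in Q175HD/SUMO-KO against WT, 3 in Q175HD against SUMO-KO and 57 in the averaged knock-in comparison, and the members' mean deviation in Q175HD/SUMO-KO 2 was 0.405. DESeq2 called 1, 24 and 2 in Q175HD against WT, Q175HD/SUMO-KO against SUMO-KO and Q175HD against SUMO-KO. A fit of only the 6 libraries of Q175HD/SUMO-KO and SUMO-KO called 1. After seeing the data, 2 settings were added: without WT 1 and WT 2, 7 were called in Q175HD/SUMO-KO against SUMO-KO, 0 in Q175HD/SUMO-KO against WT and 2 averaged; without the libraries with abundant Xist, 0, 0, 0 (Q175HD against SUMO-KO) and 9 averaged. Both drop libraries. A planned fit of all 12 libraries with a term for those with abundant Xist kept 53 of the 59 single-gene calls. The other 6 kept their direction but were not called. Otherwise the cause was not tested. With a replicate block, 1, 29, 29 and 2 members were called in Q175HD against WT, Q175HD/SUMO-KO against SUMO-KO, Q175HD/SUMO-KO against WT and Q175HD against SUMO-KO. Of 18 same-numbered pairs 11 correlated above 0.1 (range -0.228 to 0.574), and differently numbered pairs ranged from -0.534 to 0.405. Whether same-numbered pairs correlate more was not tested, so the numbers are not shown to pair the samples. Leaving out each library gave 0 to 2 calls in Q175HD against SUMO-KO, 1 to 23 in Q175HD/SUMO-KO against SUMO-KO, 0 to 27 in Q175HD/SUMO-KO against WT, 13 to 35 averaged, and an interaction median of 0.083 to 0.26. On the log2(TPM + 1) scale the mean deviations of Q175HD 2, SUMO-KO 3 and Q175HD/SUMO-KO 3 were 0.184, -0.125 and 0.026. Without the 10 most abundant genes the members' share of reads was 0.857%, 0.942% and 0.975% in WT, 0.978%, 1.03% and 1.242% in Q175HD, 0.924%, 1.01% and 0.907% in SUMO-KO and 1.16%, 1.255% and 1.22% in Q175HD/SUMO-KO. Depth limits Rpl24, at 4 to 14 reads.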
